A study of Saccharomyces cerevisiae with 6 samples.

Results

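The comparison described here sets budding yeast lacking IZH2 against its parent strain. Its members are the 2 arrays whose titles name the izh2 deletion and the 2 arrays of the undeleted strain, 4 of the 6 arrays in the series. The other 2 arrays, of an eos1 deletion in the same strain, entered the fit only to share its estimate of spread and in 1 direct contrast near the end. All strains are Saccharomyces cerevisiae BY4741, which is a haploid laboratory strain with mating type a and without functional HIS3, LEU2, MET17 and URA3. Deleted and undeleted cells alike were grown in YPD, a rich medium of yeast extract, peptone and glucose, at 30 °C with shaking at 150 rpm, and harvested in log phase at an OD600 of 1.0. The labels do not say how IZH2 was removed, what replaced it or whether more than 1 clone was used. They speak of separate experiments for the 2 arrays of a strain, and p values measure the spread between those arrays.

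IZH2 encodes a membrane protein of the PAQR family, which also holds the adiponectin receptors of animals. It is a known target of Zap1, the transcription factor that turns on zinc uptake genes when zinc is scarce, and has been linked to lipid and phosphate metabolism. EOS1 encodes an endoplasmic reticulum membrane protein linked to N-glycosylation and oxidative stress tolerance. The title of the series places that gene in zinc homeostasis, and the izh2 deletion allows the loss of a gene of the zinc response to be compared with the same wild type.

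Each Affymetrix Yeast Genome 2.0 array gave 1 signal for each of 10928 probe sets, of which 5498 name 1 yeast gene, 5449 genes in all. Probe sets for 4907 genes exceeded the level of probe sets that name no single yeast gene and were tested. Median gene signals ran from 472 to 549 on the 4 arrays. Values below are scaled signals, the deposited signals multiplied so that every array has the same median, and differences are izh2 deletion minus wild type on the log2 scale. They describe relative RNA amounts in a culture, so fewer cells with a transcript and less transcript per cell cannot be told apart.

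The arrays of a strain were not closer to each other than to arrays of the other strain. The median absolute log2 difference over 4905 tested genes, IZH2 and EOS1 left out, was 0.26 between the wild-type arrays and 0.21 between the deletion arrays. It was 0.13 between wild-type array 2 and deletion array 1, the closest pair, whose log2 signals correlated across genes at r = 0.99. Wild-type array 1 differed by 0.28 from deletion array 1 and by 0.23 from deletion array 2, whereas wild-type array 2 differed by 0.18 from deletion array 2. Genes that differed more than 2-fold numbered 123 between the wild-type arrays, 41 between the deletion arrays and 10 between wild-type array 2 and deletion array 1. Wild-type array 1 therefore stood apart from the other 3 arrays, and many differences below were larger on deletion array 2 than on deletion array 1. Main counts, some list medians and the named genes that moved most are given without single arrays as well. Of 29 list medians, 16 had both signs among the values with single arrays left out. A median given only with all arrays may therefore not keep its sign.

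**Figure D1:**
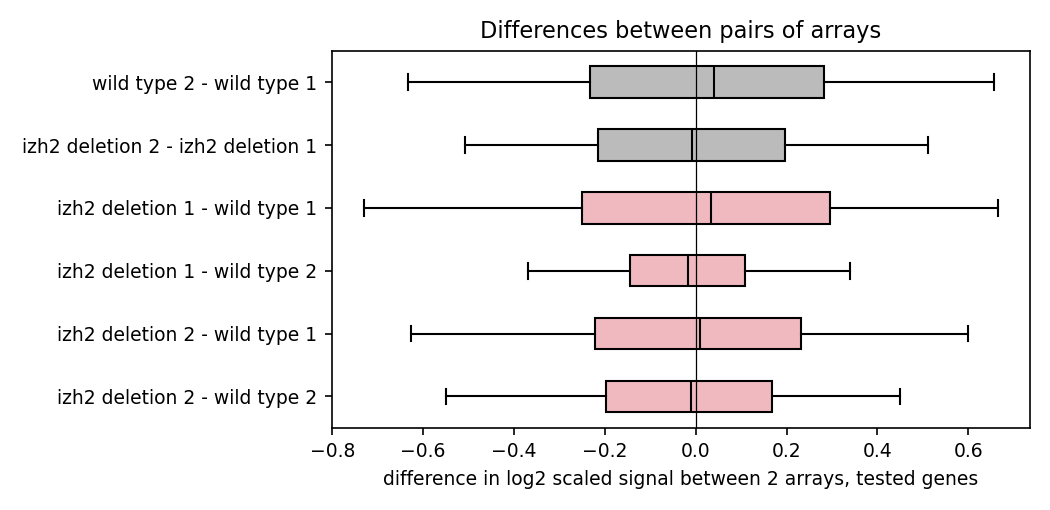
Log2 differences between pairs of arrays over 4905 tested genes, within a strain (grey) and between strains (pink); the line in a box is the median, the box spans the quartiles and the whiskers run from the 5th to the 95th percentile. The narrowest box is that of izh2 deletion 1 against wild type 2, with a median absolute difference of 0.13, against 0.26 between the wild-type arrays.

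IZH2 itself gave scaled signals of 3494 and 2589 on the wild-type arrays and 3.77 and 1.29 on the deletion arrays. Both deletion values lay below those arrays' background levels of 12.1 and 8.67 in deposited units, so the fold is a bound. IZH2 was at least 263-fold lower in the deletion, with an adjusted p of 1.48e-05 by limma. Its arrays in the eos1 deletion gave 1841 and 1217, above background and below both wild-type values. EOS1 was measured at 685 and 750 in the wild type and at 910 and 689 in the izh2 deletion, and these ranges overlapped.

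The 5 annotated genes on each side of IZH2 on chromosome XV were all tested, and 0 of the 10 passed the adjusted threshold. CSI2, a protein of the bud neck linked to chitin, read 607 and 638 in the wild type and 801 and 848 in the deletion, a difference of 0.41 (SE 0.20). PFA4, a palmitoyltransferase of the endoplasmic reticulum, read 635 and 639 in the wild type against 494 and 515 in the deletion, a difference of -0.34 (SE 0.17). For both genes the strains did not overlap, and TOP1 and ALG6 were likewise higher on both deletion arrays. Of all tested genes, 12.7% were higher and 13.4% lower in this way. The other 8 neighbours, TOP1, RPB11, SIN3, PHO80, RRP6, ALG6, YSP3 and UTP23, differed by -0.14 (RPB11) to 0.18 (SIN3). Median differences of whole chromosomes ran from -0.025 on chromosome VI to 0.034 on chromosome XIV, so no chromosome was shifted as a unit in the izh2 deletion.

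Markers of strain and mating type went with the labels, apart from signals for HIS3 and SAG1. Probe sets for LEU2, MET17 and URA3 stayed below the filter, and the highest of their scaled signals on the 4 arrays was 26.8. HIS3 gave 2388 and 2301 in the wild type and 2577 and 1507 in the deletion. Since the allele of this strain lacks part of the gene, and the position of the probe set was not looked up here, this signal checks nothing. Genes of a cells were present on all arrays: MFA1, an a-factor precursor, read 4257 and 2977 in the wild type and 2621 and 2532 in the deletion, and STE2, the alpha-factor receptor, read 4335 and 6075 against 6149 and 5622. The alpha-cell genes MF(ALPHA)1, MF(ALPHA)2 and STE3 remained below the filter, while SAG1, the alpha-agglutinin, passed it at 265 and 276 against 275 and 235.

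Apart from IZH2, 0 genes passed an adjusted p of 0.05 in the limma fit, and the smallest adjusted p among the other 4906 genes was 0.9998. IZH2 alone makes up 0.0204% of the tested genes. At an unadjusted p under 0.05, 35 genes were higher (0.713%) and 80 lower including IZH2 (1.63%). Together these lie below the share of 0.05 that such a threshold would pass if no gene differed. Without centring the arrays, the counts were 8 higher and 97 lower. They also depended on single arrays: without wild-type array 2 they were 270 higher and 293 lower, without deletion array 2 they were 16 and 44, and without deletion array 1 the lower count was 127. Both deletion arrays lay above both wild-type arrays in 622 genes (12.7%) and below them in 656 (13.4%).

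The fit limits how large an undetected difference can be for most genes. The 95% confidence interval of a gene's difference reached, in the median, 0.47 to either side, a 1.38-fold change. For 4483 of 4906 genes (91.4%) the whole interval lay within a 2-fold difference in either direction. A p above the threshold does not show that a gene did not differ. With 2 arrays against 2, an exact permutation test of a single gene could not give a two-sided p below 0.333.

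When wild-type array 2 was left out, 7 genes passed the adjusted threshold, IZH2 and 6 that were higher. These 6, chosen after their values were seen, are YAR010C, DHH1, BSC1, YBL112C, YBL005W-A and SPT10. BSC1 gave 18.9 on wild-type array 1, 162 on wild-type array 2, and 151 and 141 in the deletion. DHH1, an RNA helicase of mRNA decay, read 125 on wild-type array 1 and 583 on wild-type array 2, against 418 and 348. SPT10, a regulator of histone genes, read 58.3 and 197 in the wild type against 210 and 206 in the deletion. In all 6 genes the low value was that of wild-type array 1. Without that array, the differences of 5 of the 6 were below 0, with SPT10 the exception. YAR010C and YBL005W-A belong to Ty elements, whose near-identical copies a probe set may not separate.

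The genes with the lowest differences among those at an unadjusted p under 0.05 were EGO4, RGI1, TPO4, TMA10, HXK1, SPI1, HXT7 and RTC3, and none passed the adjusted threshold. RGI1, a protein of energy metabolism known to rise in respiratory growth, read 2459 and 1515 in the wild type and 914 and 393 in the deletion, a difference of -1.69 (SE 0.66). TPO4, a polyamine transporter of the plasma membrane, gave 1118 and 1074 against 666 and 215, a difference of -1.54 (SE 0.50). Without deletion array 2 the differences of RGI1, TPO4 and SPI1 were -1.08, -0.72 and -0.76. In the wild type EGO4 itself varied from 676 to 225, and its deletion arrays gave 160 and 85.7. TMA10, a ribosome-associated protein, likewise varied in the wild type, at 508 and 201, against 96.3 and 138. The wild-type spread of EGO4 and of TMA10 was thus wider than the gap between wild-type array 2 and deletion array 1, and without wild-type array 1 their differences were -0.94 and -0.80. The smallest unadjusted p after IZH2 was that of TMA17, a chaperone of proteasome assembly that was chosen after its values were seen. TMA17 gave 336 and 405 in the wild type and 175 and 193 in the deletion, a difference of -1.01 (SE 0.20, unadjusted p = 0.000647 by limma).

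On the higher side the corresponding genes were MIG1, HST3, YGR079W, MIG2, HLR1, CLB2, YAR009C and FTR1. MIG1, a repressor of glucose-repressed genes, read 321 and 418 in the wild type and 641 and 746 in the deletion, a difference of 0.92 (SE 0.32). MIG2, a repressor of the same family, read 265 and 344 against 444 and 636, a difference of 0.82 (SE 0.34). Genes named here were chosen among those with strains that did not overlap, so the gap in both repressors follows from that choice. Neither repressor passed the adjusted threshold. HST3, a histone deacetylase of the sirtuin family, gave 74.2 and 115 against 138 and 216. CLB2, a mitotic cyclin, gave 222 and 418 against 429 and 656, and wild-type array 2 came close to deletion array 1. Without wild-type array 1 the differences of CLB2 and HST3 were 0.34 and 0.59. YAR009C belongs to a Ty element, and its 524 and 466 against 942 and 734 may come from several copies.

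**Figure D2:**
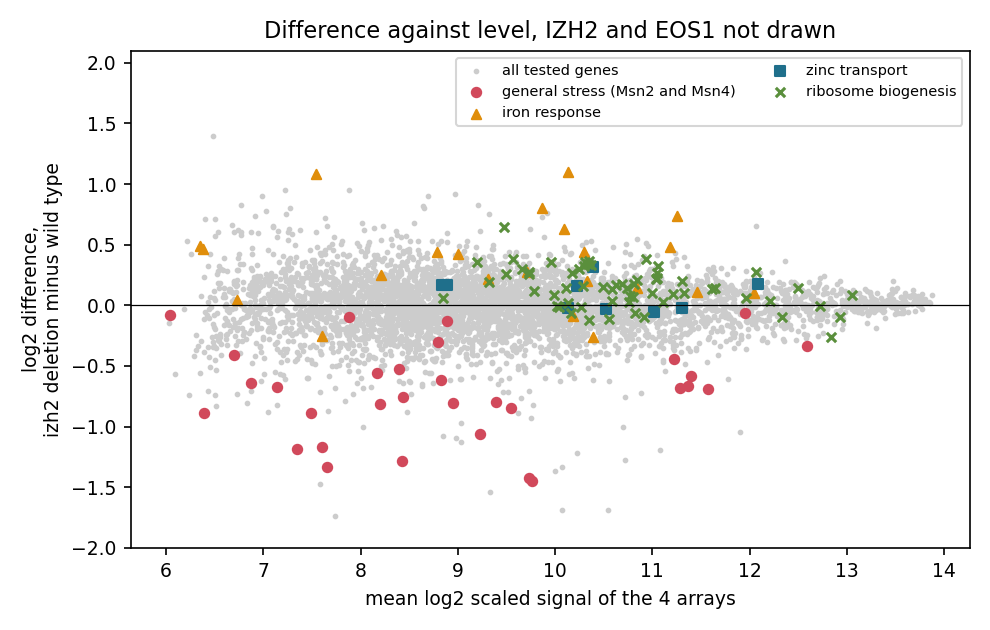
Log2 difference, izh2 deletion minus wild type, against mean log2 scaled signal for the tested genes, with 4 gene lists marked; IZH2 and EOS1 are not drawn. General stress genes lie below 0 over the whole range of levels, with a median of -0.68, and iron response genes lie mostly above it, with a median of 0.35.

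The transcription factors Msn2 and Msn4 turn on the general stress response when cells meet stress or slow their growth. Signals of its genes were mostly lower on the 2 deletion arrays than on the 2 wild-type arrays. Of 35 listed genes 31 were tested, and GAC1, ALD3, GRE1 and TKL2 were below the filter. Their median difference was -0.68, against 0.005 over all tested genes, and 31 of 31 differences were negative, from -1.45 for HXK1 to -0.06 for GPD1. GPD1, the mannosidase gene AMS1 and the Hsp70 genes SSA3 and SSA4 turned positive when 1 array was left out. In 26 of the 31, both deletion arrays lay below both wild-type arrays, against 13.4% of all genes. An unadjusted p under 0.05 was reached by 17, against 1.63% of all genes, and 0 passed the adjusted threshold. The difference was not equal on both deletion arrays: the list median against the wild-type mean was -0.45 for array 1 and -0.92 for array 2. The list also shifted within a strain: its median of array 2 minus array 1 was -0.48 in the deletion and 0.12 in the wild type. Genes under shared factors can move together, so the agreement of 31 signs rests on 2 arrays a strain. Without deletion array 2 the count at an unadjusted p under 0.05 was 6. Without wild-type array 1 the median was -0.75, and without wild-type array 2 it was -0.74.

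Of the 31 genes, 8 act on the reserve carbohydrates trehalose and glycogen, a grouping made after their values were seen. Among the 8, 7 had an unadjusted p under 0.05, against 17 of the 31 and 1.63% lower among all genes. Since the grouping came from the same values, that count is no separate result. Trehalose, a disaccharide that protects stressed cells, is made by a complex that includes TPS1, TPS2 and the regulatory subunit TSL1. TPS2 read 974 and 1030 in the wild type and 699.8 and 441 in the deletion, a difference of -0.85 (SE 0.25). TSL1 gave 640.3 and 672 against 453 and 309.7, a difference of -0.81 (SE 0.29). For TPS1 the values were 2624 and 2975 against 2589 and 1634, so deletion array 1 almost reached the wild type; TPS1 was chosen after its values were seen. In all 3 genes deletion array 2 was lowest, and without it the differences of TPS2, TSL1 and TPS1 were -0.52, -0.53 and -0.11.

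Glycogen synthase is encoded by GSY1 and GSY2, the branching enzyme by GLC3 and the phosphorylase that breaks glycogen down by GPH1. GSY1 read 228 and 264 in the wild type and 138 and 127 in the deletion, a difference of -0.89 (SE 0.21), and here both deletion arrays were close together. GSY2 gave 708 and 1105 against 657 and 396, a difference of -0.79 (SE 0.34). GLC3 gave 433 and 661 against 346 and 139.9, a difference of -1.28 (SE 0.43). Enzymes of synthesis and of breakdown were lower side by side, since GPH1 gave 229 and 263 against 155 and 75.4, a difference of -1.18 (SE 0.43). PGM2, a phosphoglucomutase that links glucose phosphates to both reserves, gave 371 and 409 against 300.0 and 163. Without deletion array 2 the differences of GLC3, GPH1, GSY2 and PGM2 were -0.63, -0.67, -0.43 and -0.38, while that of GSY1 was -0.83. Without wild-type array 2 that of GSY2 was -0.47.

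Chaperones of the list varied more. HSP42, a small heat shock protein, read 800.1 and 935 in the wild type and 458 and 377 in the deletion, a difference of -1.06 (SE 0.23). HSP104, a disaggregase, gave 3586 and 3041 against 2169 and 2248, a difference of -0.58 (SE 0.19). Their deletion arrays were close together and well below the wild type. The small heat shock protein HSP26 and the membrane-associated HSP12, the latter chosen after its values were seen, differed by -0.56 and -0.62 and had unadjusted p values of 0.0709 and 0.101. SSA3 and SSA4 overlapped between the strains.

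The remaining listed genes at an unadjusted p under 0.05 were RTC3, DDR2, PNC1, YGP1, SPI1 and MSC1, and the hexose kinase genes HXK1 and GLK1, which are described below. DDR2, a stress-induced protein of unknown function, read 317 and 268 in the wild type and 166 and 101 in the deletion, a difference of -1.17 (SE 0.33). RTC3 read 339.6 and 299 against 167 and 96.2, a difference of -1.33 (SE 0.27). PNC1, the nicotinamidase of NAD salvage, gave 4632 and 3238 against 2223 and 2594, a difference of -0.69 (SE 0.20) that was -0.43 without wild-type array 1. In PNC1 and MSC1 deletion array 1 was the lower one, unlike most of the list.

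**Figure D3:**
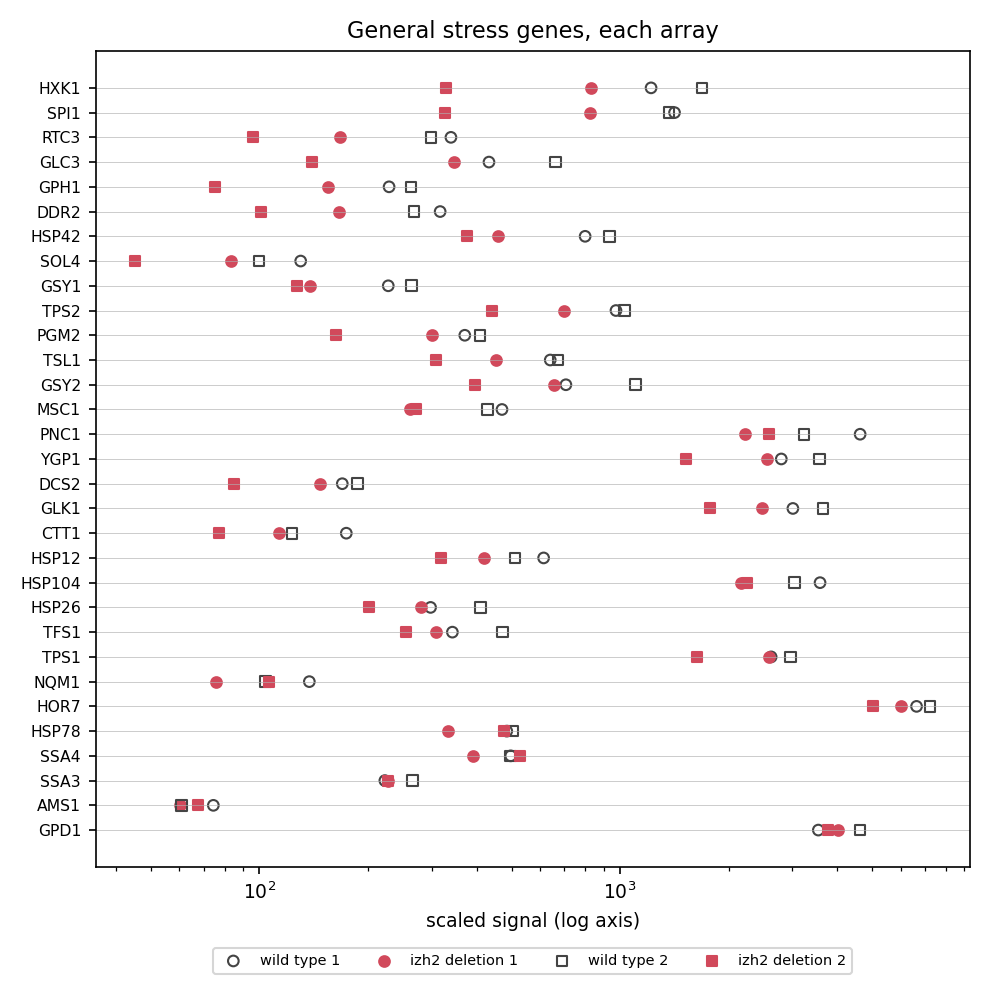
Scaled signals (log axis) of the 31 tested general stress genes on each wild-type array (open grey) and each izh2 deletion array (filled red), ordered by log2 difference. Both red symbols lie to the left of both open symbols in 26 genes, and deletion array 2 is usually the lower.

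Over the whole table, 17 of the 79 genes lower at an unadjusted p under 0.05 belonged to the general stress list, which is 21.5% of those genes and 54.8% of the list. Of the 20 genes with the smallest p after IZH2, 19 were lower and 8 were in the list. The list holds 31 of the 4906 tested genes other than IZH2, and these 8 are among the 17. Any of the lists held 25 of the 79 lower genes and 4 of the 35 higher ones. That is 31.6% and 11.4%, against 14.6% of the 4906 tested genes other than IZH2. The 25 include the 17 general stress genes, and the lists were chosen with earlier results of these data known. These shares are therefore no separate result.

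Sugar transport and phosphorylation genes named above for the size of their difference were HXK1 and HXT7. HXK1, a hexokinase isoenzyme that is repressed by glucose, read 1219 and 1686 in the wild type and 833 and 329.9 in the deletion, a difference of -1.45 (SE 0.37). HXT7, a high-affinity glucose transporter whose near-identical copy HXT6 may share its probe set, gave 1740 and 1555 against 916 and 443, a difference of -1.37 (SE 0.38). GLK1, a glucokinase, gave 3015 and 3653 against 2480 and 1773, a difference of -0.66 (SE 0.20). HXK1, HXT7 and GLK1 were lower on both deletion arrays, as were all genes lower at an unadjusted p under 0.05. Adjusted p values of HXK1, HXT7 and GLK1 were 0.9998 by limma. Without deletion array 2 their differences were -0.78, -0.84 and -0.42.

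Among 19 tested genes of glycolysis and ethanol formation the median was 0.0085. At an unadjusted p under 0.05, 4 were lower, against 1.63% of all genes, namely HXK1, GLK1, TDH1 and PYK2. TDH1, a glyceraldehyde-3-phosphate dehydrogenase isoenzyme, read 6129 and 4967 in the wild type and 3570 and 1999 in the deletion, a difference of -1.05 (SE 0.30) that was -0.63 without deletion array 2. PYK2, the minor pyruvate kinase, gave 476 and 468 against 330.3 and 245, a difference of -0.73 (SE 0.24). Each of the 4 encodes an isoenzyme of a step that other genes also serve. Only 11 of 21 listed glucose-repressed genes were tested, since 9 lay below the filter and HXT6 was not found by name. Their median was -0.13, and HXT7 was the 1 gene among them with an unadjusted p under 0.05. MAL11, a maltose permease, gave 121 and 114 against 85.4 and 57.7, a difference of -0.74 (SE 0.34).

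Zinc genes are the subject of the series. Over 22 tested members of the Zap1 regulon, IZH2 left out, the median difference was -0.02, with 7 genes higher on both deletion arrays and 3 lower, against 12.7% and 13.4% of all genes. At an unadjusted p under 0.05, 1 was higher and 0 were lower. That gene was ZAP1 itself, the zinc-sensing activator, which read 84.6 and 118 in the wild type and 144 and 159 in the deletion, a difference of 0.60 (SE 0.26, unadjusted p = 0.0487 by limma). Without wild-type array 1 the difference of ZAP1 was 0.36.

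Zinc uptake genes overlapped between the strains. ZRT1, the high-affinity zinc transporter of the plasma membrane, read 1283 and 996 in the wild type and 1194 and 1329 in the deletion, and its difference of 0.16 had a 95% confidence interval from -0.28 to 0.59. ZRT2, the low-affinity transporter, gave 1530 and 1454 against 1519 and 1411, a difference of -0.03 with an interval from -0.40 to 0.35. FET4, a low-affinity transporter of iron and zinc, gave 2183 and 2048 against 2011 and 2066. For ZRT1 and ZRT2 the sign turned when single arrays were left out.

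Zinc storage genes ranged from level to slightly higher. ZRC1, which moves zinc into the vacuole, read 3820 and 4362 in the wild type and 4622 and 4628 in the deletion, a difference of 0.18 (SE 0.15). COT1, a vacuolar transporter of zinc and cobalt, gave 1121 and 1294 against 1208 and 1860, a difference of 0.32 (SE 0.23) that came from deletion array 2. ZRT3, which releases vacuolar zinc, differed by -0.02 and overlapped. MSC2 and ZRG17, partners in zinc transport into the secretory pathway, differed by 0.17 each, with MSC2 higher on both deletion arrays at 484 and 485 against 440 and 423. YKE4, a transporter of the same compartment, differed by -0.02 and changed sign under quantile normalization. Over the 9 transporters the median was 0.16, with 0 at an unadjusted p under 0.05, and it was 0.08 without wild-type array 1 and 0.0061 without wild-type array 2.

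The other members of the IZH family encode proteins of the same PAQR type. IZH1 read 1487 and 1867 in the wild type and 2306 and 2029 in the deletion, a difference of 0.38 (SE 0.19) with a 95% confidence interval from -0.05 to 0.80. IZH3 gave 465 and 743 against 746 and 636, where only wild-type array 1 was low. IZH4 gave 1364 and 951 against 1100 and 1072. IZH1 was thus the only paralog with deletion arrays beyond both wild-type arrays, and 12.7% of all genes were higher in this way. The unadjusted p of IZH1 was 0.0757 by limma. Without wild-type array 1, the differences of IZH3 and IZH4 were -0.11 and 0.19, each the opposite of its sign with all arrays.

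**Figure D4:**
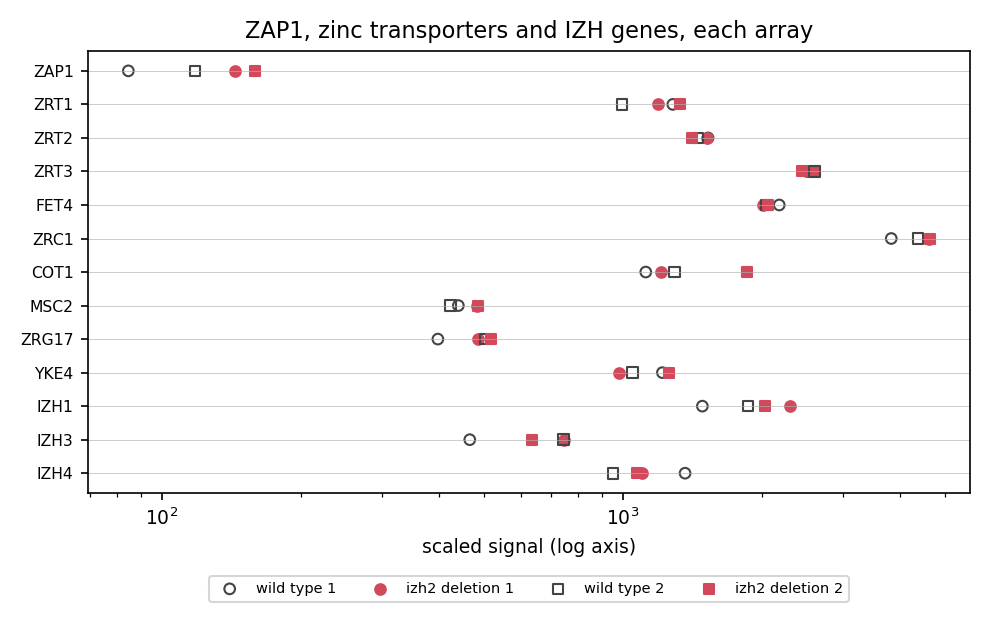
Scaled signals (log axis) of ZAP1, 9 zinc transporter genes and the 3 other IZH genes on each wild-type array (open grey) and each izh2 deletion array (filled red). Both red symbols lie to the right of both open symbols for ZAP1, ZRC1, MSC2 and IZH1; the other genes overlap.

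Phosphate genes were examined because IZH2 has been linked to phosphate metabolism. The PHO pathway runs from the cyclin-dependent kinase Pho85 and its cyclin Pho80, which restrain the transcription factor Pho4, to phosphatase and transporter genes. Over 13 tested targets the median difference was 0.07, with 3 genes higher and 1 lower on both deletion arrays, against 12.7% and 13.4% of all genes, and 0 at an unadjusted p under 0.05. PHO84, the high-affinity phosphate transporter, read 7179 and 9362 in the wild type and 8597 and 9316 in the deletion. PHO11, an acid phosphatase, read 5577 and 6057 against 5870 and 6674. PHO84 and PHO11 were chosen after their values were seen, and both overlapped.

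PHO89, a sodium-phosphate cotransporter, gave 679 and 775 in the wild type, and 738 and 1955 in the deletion, so its difference of 0.73 (SE 0.53) rested on deletion array 2 and was 0.025 without it. PHM8, a nucleotide phosphatase induced by phosphate starvation, was the 1 lower target, at 482 and 361 against 234 and 313. VTC2, a subunit of the polyphosphate polymerase complex, was higher on both deletion arrays, at 3391 and 3172 against 2990 and 2621. Among 8 signalling genes and low-affinity transporters none had strains that did not overlap, against 12.7% higher and 13.4% lower among all genes. PHO4 gave 229.7 and 447 in the wild type against 434 and 496, a difference of 0.53 (SE 0.30) in which wild-type array 1 was the low one, and 0.055 without that array. The remaining 7, PHO2, PHO80, PHO85, PHO86, PHO87, PHO90 and PHO91, differed by -0.09 (PHO87) to 0.30 (PHO91).

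Iron response genes, which Aft1 turns on when iron is short, had the highest median of the lists described, 0.35 over 22 tested members. On both deletion arrays 8 genes were higher and 0 were lower, against 12.7% and 13.4% of all genes, and 1 was higher at an unadjusted p under 0.05. That gene was FTR1, the high-affinity iron permease, which read 1669 and 2157 in the wild type and 2736 and 3647 in the deletion, a difference of 0.74 (SE 0.27). SIT1, a transporter of siderophore-bound iron, gave 627 and 935 against 956 and 2807, a difference of 1.10 (SE 0.52). FRE4, a reductase of siderophore-bound iron, gave 111 and 148 against 158 and 465, a difference of 1.08 (SE 0.51). For SIT1 and FRE4 deletion array 1 barely exceeded the wild type, and without deletion array 2 their differences were 0.32 and 0.31. FET3, the oxidase partner of FTR1 and chosen after its values were seen, gave 1764 and 2205 against 2038 and 3717 and overlapped. The list median against the wild-type mean was 0.01 for deletion array 1 and 0.55 for deletion array 2, so it rested on 1 array. It was 0.21 without wild-type array 1 and 0.46 without wild-type array 2. The copper response, whose reductases and transporters feed iron uptake, had a median of -0.07 over 9 genes, with 0 at an unadjusted p under 0.05. CTR1, the copper transporter, read 2885 and 3276 in the wild type and 3332 and 3719 in the deletion.

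Lipid genes were examined because of the family to which Izh2 belongs. In sphingolipid metabolism, 24 tested genes had a median of -0.0095. At an unadjusted p under 0.05, 2 were lower, against 1.63% of all genes, namely YDC1 and YPC1. These encode the alkaline ceramidases of the endoplasmic reticulum, which split ceramide into a long-chain base and a fatty acid. YDC1, the dihydroceramidase, read 2638 and 2245 in the wild type and 1668 and 1300 in the deletion, a difference of -0.72 (SE 0.22). YPC1, the phytoceramidase, gave 842 and 647 against 471 and 255, a difference of -1.09 (SE 0.38). Without deletion array 2 that of YPC1 was -0.65. Both ceramidase genes were lower on each deletion array than on each wild-type array. This held for all 79 genes lower at that p, IZH2 left out, and so adds nothing for these genes. Adjusted p values of YDC1 and YPC1 were 0.9998 by limma. SUR2, the hydroxylase that forms phytosphingosine, lay the other way at 2008 and 2229 against 2707 and 2602, a difference of 0.33 (SE 0.16).

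In ergosterol synthesis 26 of 28 differences were positive, with a median of 0.12, 8 genes higher on both deletion arrays and 0 lower, against 12.7% and 13.4% of all genes. ERG5, the sterol desaturase, read 1474 and 1836 in the wild type and 2227 and 2470 in the deletion, a difference of 0.51 (SE 0.19), and was the 1 gene at an unadjusted p under 0.05. HMG1, an HMG-CoA reductase, gave 1309 and 1710 against 1929 and 1813, and ECM22, an activator of sterol genes, gave 432 and 385 against 467 and 516. Without wild-type array 1 the list median was 0.03, and without wild-type array 2 it was 0.20. Fatty acid synthesis, with 14 tested genes, and phospholipid synthesis, with 19, had medians of -0.06 and 0.05 and 0 genes at an unadjusted p under 0.05. FAA3, a fatty acyl-CoA synthetase, read 792 and 1127 against 1240 and 1215, and EKI1, the ethanolamine kinase, which is also a Zap1 target, read 210.1 and 196 against 249 and 260.3. Of 18 listed peroxisomal genes of fatty acid breakdown, 12 were tested, and their median was -0.16 with 6 lower and 0 higher on both deletion arrays, against 13.4% and 12.7% of all genes. FOX2, the multifunctional beta-oxidation enzyme, read 324 and 295 against 266 and 186, and TES1, a peroxisomal thioesterase, read 407 and 455 against 373 and 305. POX1, POT1, DCI1, IDP3, CTA1 and CRC1 were below the filter.

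In ribosome biogenesis, 62 tested genes had a median of 0.14, with 50 positive, 22 higher on both deletion arrays and 1 lower, against 12.7% and 13.4% of all genes. RRP9, a protein of the U3 ribonucleoprotein, read 660.4 and 487 in the wild type and 872 and 905 in the deletion, a difference of 0.65 (SE 0.22, and 0.43 without wild-type array 2), and was the 1 member at an unadjusted p under 0.05. MPP10, of the same particle, gave 597 and 739 against 865 and 866, and NOC2, a factor of large subunit assembly, gave 1088 and 1152 against 1474 and 1395. The 128 tested cytosolic ribosomal protein genes had a median of 0.02, with 7 higher and 4 lower on both deletion arrays, shares below the same 12.7% and 13.4% of all genes. For ribosome biogenesis the median was 0.20 on deletion array 1 and 0.12 on array 2, and for the ribosomal protein genes it was -0.08 and 0.12.

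Respiration genes lay lower, with a median of -0.20 over 36 tested members, 31 negative, and 19 lower and 0 higher on both deletion arrays, against 13.4% and 12.7% of all genes. COX6, a subunit of cytochrome c oxidase, read 2310 and 2081 in the wild type and 1498 and 1798 in the deletion, a difference of -0.42 (SE 0.18), and was the 1 gene at an unadjusted p under 0.05. SDH4, a subunit of succinate dehydrogenase, gave 1403 and 1565 against 1236 and 992. QCR9, a subunit of the cytochrome bc1 complex, gave 2000 and 1990 against 1267 and 1682. The list median was -0.12 for deletion array 1 and -0.23 for array 2. Mitochondrial ribosomal protein genes, 54 in number, had a median of -0.17 that depended on the wild-type array, being -0.0078 without wild-type array 1 and -0.36 without wild-type array 2.

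Signalling and wall genes gave mixed values. The Ras and protein kinase A pathway, which restrains Msn2 and Msn4 in growing cells, had a median of -0.05 over 19 tested genes and 0 at an unadjusted p under 0.05. RAS1 read 701 and 897 in the wild type and 985 and 958 in the deletion, and PDE2, the high-affinity phosphodiesterase that breaks down cAMP, read 1289 and 1180 against 1309 and 1743. TPK2, a catalytic subunit of the kinase, gave 539 and 764 against 563 and 448 and overlapped. Of 19 cell wall integrity genes, 8 were lower and 0 higher on both deletion arrays, against 13.4% and 12.7% of all genes, with a median of -0.06 that was -0.25 without wild-type array 1 and 0.16 without wild-type array 2. CHS1, a chitin synthase, read 2066 and 1687 in the wild type and 1298 and 1131 in the deletion, a difference of -0.62 (SE 0.18). PRM5, a target of the cell integrity pathway, gave 963 and 689 against 557 and 563, a difference of -0.54 (SE 0.21) that was -0.30 without wild-type array 1.

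Stress lists other than the general one were closer to 0. Heat shock genes, 22 tested, had a median of -0.06 that hid opposite values of -0.31 for deletion array 1 and 0.20 for array 2. Oxidative stress genes, 24 tested, had a median of -0.07, with 9 lower and 1 higher on both deletion arrays, against 13.4% and 12.7% of all genes. PRX1, the mitochondrial peroxiredoxin, gave 1319 and 1151 in the wild type against 1032 and 819, and CTT1, the cytosolic catalase and also a general stress gene, gave 174 and 123 against 113 and 77.4. The unfolded protein response, with 15 genes, and N-glycosylation, with 28, had medians of 0.06 and 0.0087. Amino acid synthesis under Gcn4, methionine synthesis, histones and the genes of a cells had medians of -0.04, -0.05, -0.02 and -0.06. With single arrays left out, the medians for Gcn4, methionine and a-cell genes ran from -0.21 to 0.11, from -0.19 to 0.12 and from -0.10 to 0.12, and for the unfolded protein response and N-glycosylation they ran from -0.07 to 0.14 and from -0.06 to 0.11. None of these last 6 lists had a gene at an unadjusted p under 0.05. ARG1, which makes arginine, had the largest gap between the deletion arrays among the named genes of these 6 lists, at 3178 and 644, against 2671 and 3991 in the wild type.

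**Figure D5:**
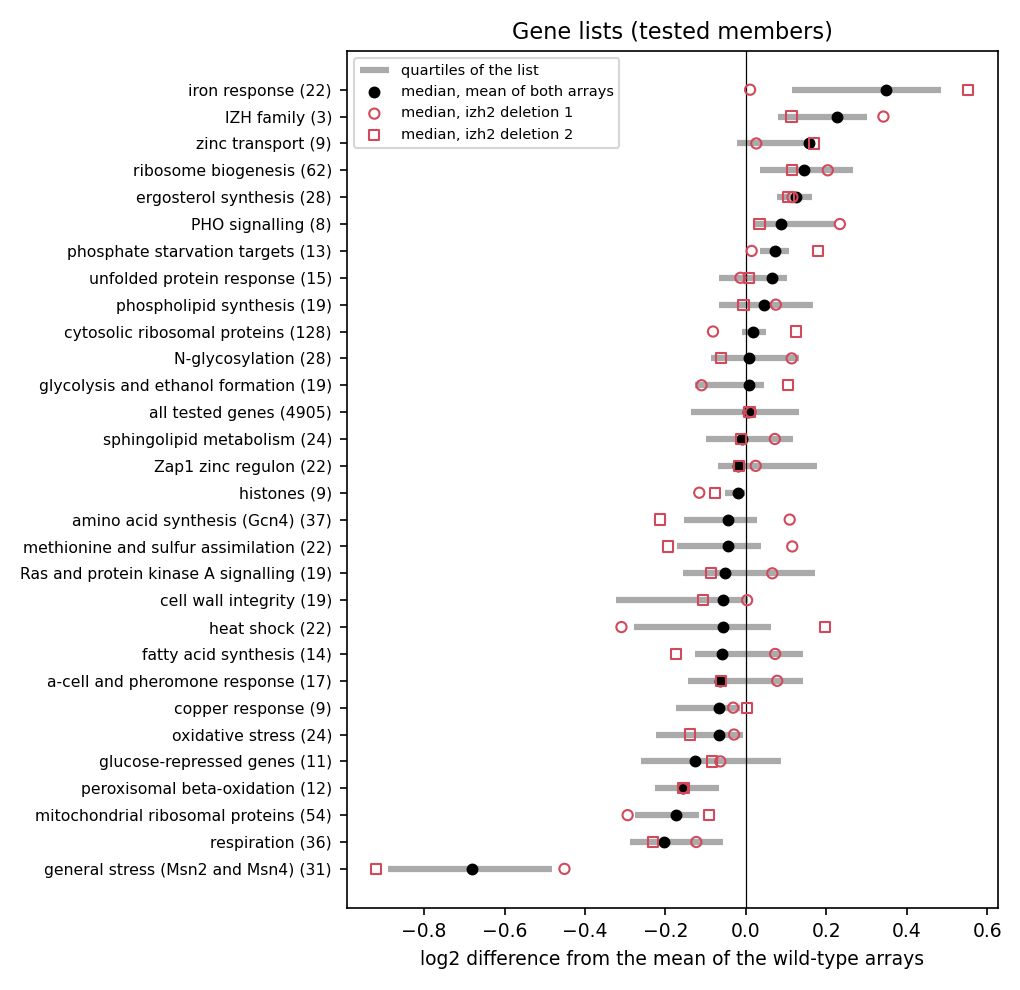
Median log2 difference from the mean of the wild-type arrays for each gene list with 3 or more tested members and for all tested genes (filled black), for each izh2 deletion array alone (open red) and the quartiles of the list (grey). The general stress list stands at -0.68, with -0.45 on deletion array 1 and -0.92 on array 2; for the iron response the medians are 0.01 and 0.55.

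The izh2 and eos1 deletions share their wild-type arrays, so they were compared directly in the same fit. Against the eos1 deletion, 215 genes were higher in the izh2 deletion (4.38% of those tested) and 313 lower (6.38%) at an adjusted p under 0.05. Of 31 general stress genes 25 were lower and 0 higher. Their medians against the wild type were -0.68 in the izh2 deletion and 0.83 in the eos1 deletion. Genes of a cells were higher in 12 of 17 cases, with medians of -0.06 and -1.36. Phosphate starvation targets were higher in 11 and lower in 1 of 13, with medians of 0.07 and -1.03. Zinc transporters were higher in 4 of 9, with medians of 0.16 and -0.38. These differences lay mostly on the side of the eos1 deletion. In the general stress list the medians of both deletions stood away from 0 in opposite directions. Against the wild type, 9 of its 31 genes were called higher in the eos1 deletion, where 189 of all 4905 genes were. In the izh2 deletion 0 of the 31 were called, so the direct count cannot be assigned to the izh2 deletion alone.

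The direct counts depended on single arrays. The 528 genes in total became 85 without izh2 deletion array 2, 103 without eos1 deletion array 1, 143 without izh2 deletion array 1 and 215 without eos1 deletion array 2. The general stress count was 12 without izh2 deletion array 2 and 12 without eos1 deletion array 1. The phosphate count was 5 to 12 and the zinc count 1 to 4 over the single arrays left out. For ribosome biogenesis, 25 of 62 genes were higher, but 0 were without any 1 of the 4 deletion arrays, and 0 were without centring. Genes of chromosome II had a median of 0.78 in the eos1 deletion against the wild type and -0.0056 in the izh2 deletion, and 3 of the 31 general stress genes lie on it.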

How the data were processed

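Per the labels' protocols, RNA isolated with hot phenol was biotin-labelled for Affymetrix Yeast Genome 2.0 arrays. For every probe set on an array the authors deposited a linear signal intensity. The submitters' processing notes name GCOS, with neither a version nor the scaling between arrays given in the sources used here. For statistics the design text names GeneSpring 7.3.1. Precision is limited by the number of arrays, 2 per strain.

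Genes were assigned to probe sets from the platform annotation, with names from the R64 gene table (12 symbols updated), and for 47 genes with several probe sets the brightest was used. Signals were floored at 1, taken to log2 and centred on each array's median over yeast genes. A gene was tested if its mean uncentred log2 signal over 6 arrays exceeded 6.52 (a signal of 91.8), the 95th percentile of probe sets naming no single yeast gene, which kept 90.1% of genes. All 6 arrays were fitted with limma 3.58.1 (R 4.3.3; eBayes with intensity trend after lmFit and contrasts.fit; 3 residual and 5.91 prior degrees of freedom). Two-sided p values were adjusted over all tested genes by the Benjamini-Hochberg method at a threshold of 0.05. The script was tested on simulated data. The bound for IZH2 takes each deletion array's 95th percentile of probe sets naming a gene of another organism as its level.

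Comparison, gene lists and named genes were chosen with earlier results of these data known. Named were the deleted genes, 5 neighbours on each side, the marker genes, called genes, the 8 highest and 8 lowest genes at an unadjusted p under 0.05 with strains that did not overlap, all IZH, zinc transport and PHO signalling genes, and of other lists the 3 smallest p values and every member under 0.05; others are marked in the text, and ends of ranges were read from the values. Lists are described by counts and medians, with no set test. Alternatives covered centring, normalization, floor, filter, probe set choice, model and each array left out. No sequence was used here.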

Additional observations from a re-analysis of the deposited data

How the results depend on the processing

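Over 19 alternatives, 115 named genes gave 2099 values, of which 2037 kept the direction and the side of the threshold and 56, in 34 genes, turned sign. None of these 34 genes was called with all arrays. Only without wild-type array 2 did 6 genes other than IZH2 pass the threshold. IZH2 was lower in every alternative that tested it, from -11.19 to -9.64 with single arrays left out and at -7.39 and -5.39 with floors of 16 and 64. The count of called genes was 1 except for 0 under a stricter filter on dim genes, which IZH2 itself did not pass, and 1 to 7 with single arrays left out. Against the eos1 deletion the 528 genes became 1140 with arrays centred on all probe sets, 149 under the stricter filter and 85 to 727 with single arrays left out. The 17 general stress genes at an unadjusted p under 0.05 became 5 under the stricter filter, which tests fewer genes, and 6 to 21 with single arrays left out. Counts of all genes at that p became 17 higher and 143 lower with arrays centred on all probe sets. The stricter filter asked for a mean log2 signal above 10.74 rather than 6.52, which left out listed stress genes such as DDR2, GSY1 and HSP42. Of 29 list medians, 16 had both signs among the values with single arrays left out. The cause was not tested for the other changes.

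The labels give the array numbers no day or batch. Across genes, the difference of array 2 minus array 1 correlated at -0.34 between the wild type and the izh2 deletion. This correlation was 0.48 between the wild type and the eos1 deletion and 0.09 between both deletions. Whether arrays of the same number were handled together was not tested. With the replicate block, 1 gene was called against the wild type, 689 against the eos1 deletion, and 22 general stress genes had an unadjusted p under 0.05.

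Signs turned without centring for PHO80 (-0.0809), PHO85 (-0.0391), PHO11 (-0.0059), PHO90 (-0.0108), RRP6 (-0.0345), UTP23 (-0.0628) and YSP3 (-0.0832), with arrays centred on all probe sets for PHO80 (-0.0346), UTP23 (-0.0164) and YSP3 (-0.0369), and under quantile normalization for ZRT3 (0.0155), YKE4 (0.0347) and PHO86 (0.0153). With single arrays left out, ranges that crossed 0 were -0.0568 to 0.34 for EOS1, -0.0652 to 0.13 for PHO80, -0.64 to 0.14 for HIS3, -0.0266 to 0.34 for ZRT1, -0.0805 to 0.026 for ZRT2, -0.0644 to 0.0229 for ZRT3, -0.0041 to 0.34 for ZRG17, -0.20 to 0.16 for YKE4, -0.11 to 0.57 for IZH3, -0.33 to 0.19 for IZH4 and -0.0564 to 0.45 for PHO2. For further genes they were -0.093 to 0.24 for PHO85, -0.0649 to 0.32 for PHO84, -0.15 to 2.95 for BSC1, -0.61 to 1.61 for DHH1, -0.25 to 0.13 for GPD1, -0.12 to 0.11 for PHO86, -0.33 to 0.15 for PHO87, -0.056 to 0.26 for PHO90, -0.26 to 0.86 for PHO91, -0.30 to 0.0181 for RPB11 and -0.27 to 0.43 for RRP6. For the rest they were -0.22 to 0.0683 for AMS1, -0.20 to 0.0284 for SAG1, -0.0382 to 0.40 for SIN3, -0.23 to 0.0288 for SSA3, -0.34 to 0.0875 for SSA4, -0.0472 to 0.44 for STE2, -0.17 to 0.28 for UTP23, -0.14 to 1.45 for YAR010C, -0.13 to 2.04 for YBL005W-A, -0.47 to 2.12 for YBL112C and -0.0164 to 0.0758 for YSP3. The number of arrays, 2 a strain, limits the precision.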
